A study of Mus musculus with 5 samples.

Results

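The SOCS (suppressor of cytokine signalling) family comprises 8 genes, Socs1 to Socs7 and Cish, and the called regions at these genes were examined in IL-2-activated CD8-TC (CD8+ T cells). Members were chosen by position, namely all regions of the Runx3 and H3K4me1 peak lists that overlapped one of the 8 gene bodies (GENCODE vM1 on mouse build mm9) extended by 20 kb on each side. They numbered 17 of the 9135 Runx3-bound regions and 26 of the 18992 H3K4me1-marked regions. The presence and number of regions at these genes are therefore a description, with no test.

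ChIP-seq maps where a protein or a histone mark lies on DNA by sequencing the fragments that an antibody precipitates. Splenic CD8-TC of ICR mice had been activated through the T cell receptor with anti-CD3e and anti-CD28 for 2 days and grown with 100 u/ml recombinant human IL-2 for 4 days, a treatment that all 5 libraries shared. No library came from untreated or Runx3-deficient cells. The 2 Runx3 libraries were made with a polyclonal anti-Runx3 antibody, the 2 control libraries with non-immune rabbit serum (NIS) and the 1 H3K4me1 library with an anti-H3K4me1 antibody. The protocol speaks of 2 repeats for H3K4me1 as well, so that its list may rest on 1 or 2 libraries. Each list is a single call set without replicates, so that there is no replicate error, and read numbers are not in the lists, so that the depth behind a region is unknown. The paper gives fewer uniquely aligned reads for these cells than for its freshly isolated CD8-TC. Whether depth bears on loci without a called region was not tested. As a check of the cell type, H3K4me1-marked regions were counted in the windows of marker genes. They were found at 5 of 5 CD8 T cell markers (3 to 9 regions each) and 4 of 4 B cell markers (1 to 2 regions each). Of 4 myeloid markers 2 held one, with 8 at Itgam, 1 at Cd14 and 0 at Csf1r and Lyz2. Among all protein-coding genes 39.4% held one. Presence of the mark thus did not separate T cell from B cell markers. Windows of the CD8 T cell markers also share regions, as their 14 Runx3-bound regions were 11 distinct ones.

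SOCS proteins are induced by cytokines and then damp the same signalling. Cytokine receptors activate JAK kinases, which phosphorylate STAT transcription factors, and STATs switch on genes including those of the SOCS family. Each SOCS protein has an SH2 domain that binds phosphotyrosine and a C-terminal SOCS box that recruits a ubiquitin ligase. In T cells Socs1 and Cish are well known brakes on IL-2 family cytokine and T cell receptor signals. Runx3 belongs to the RUNX transcription factors and acts in the development and effector function of CD8-TC, and H3K4me1 is a histone mark abundant at enhancers.

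The sequence motifs looked for were the RUNX motif (TGTGGT or TGTGGC or TGCGGT or TGCGGC), the ETS motif (AGGAAA or AGGAAG or CGGAAA or CGGAAG), the AP-1 motif (TGACTCA or TGAGTCA) and the palindromic STAT motif (TTCNNNGAA), each on both strands. The STAT motif can share bases with an ETS motif, as 5 of the 15 STAT motifs in the members did. The windows below are the central 200 bp of those members that held both a RUNX and a STAT motif there, apart from the Cish start. They are shown because, of the 4 motifs, STAT was the one whose share at the SOCS loci differed most from that of all Runx3-bound regions. A match to a motif is a description of the sequence and does not show that a factor was bound. Each is the plus strand of mm9, RUNX and STAT motifs are in capitals, and the name gives the distance of the region centre from the 5' end of the gene, positive in the direction of transcription.
Socs1 at 16.7 kb, chr16:10768865-10769064: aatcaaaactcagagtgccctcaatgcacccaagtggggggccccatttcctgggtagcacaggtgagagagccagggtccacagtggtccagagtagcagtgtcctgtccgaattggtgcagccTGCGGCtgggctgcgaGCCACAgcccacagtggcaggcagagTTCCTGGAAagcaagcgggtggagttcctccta
Socs1 at 13.1 kb, chr16:10772382-10772581: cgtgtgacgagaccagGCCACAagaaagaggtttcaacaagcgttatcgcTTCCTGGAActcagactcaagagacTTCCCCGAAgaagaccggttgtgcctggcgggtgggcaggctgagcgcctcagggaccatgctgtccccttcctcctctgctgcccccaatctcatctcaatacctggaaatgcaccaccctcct
Socs1 at 2.12 kb, chr16:10783411-10783610: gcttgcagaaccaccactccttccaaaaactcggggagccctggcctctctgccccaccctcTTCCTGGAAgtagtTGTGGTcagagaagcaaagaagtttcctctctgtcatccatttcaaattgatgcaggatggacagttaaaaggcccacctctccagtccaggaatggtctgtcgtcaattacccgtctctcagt
Socs3 at 4.23 kb, chr11:117827030-117827229: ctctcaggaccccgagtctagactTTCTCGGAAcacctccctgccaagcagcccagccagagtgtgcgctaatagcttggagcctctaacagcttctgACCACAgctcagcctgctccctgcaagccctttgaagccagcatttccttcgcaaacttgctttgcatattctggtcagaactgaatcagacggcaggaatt
Socs3 at -20.0 kb, chr11:117851240-117851439: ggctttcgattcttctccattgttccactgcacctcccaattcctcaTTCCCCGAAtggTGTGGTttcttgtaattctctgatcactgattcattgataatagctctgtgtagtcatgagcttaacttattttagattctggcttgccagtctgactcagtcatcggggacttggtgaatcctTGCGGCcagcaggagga
Cish at 11.9 kb, chr9:107210180-107210379: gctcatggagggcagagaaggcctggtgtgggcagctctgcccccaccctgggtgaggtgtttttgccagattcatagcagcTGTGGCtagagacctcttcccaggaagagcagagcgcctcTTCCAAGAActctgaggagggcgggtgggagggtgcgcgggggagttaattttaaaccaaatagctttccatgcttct

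At the start of Cish, the classical STAT5 target of the family, the Runx3-bound region held 4 STAT motifs in pairs. The pairs are shown in short windows because they overlap annotated UTR, with STAT motifs in capitals, and the motifs of a pair were 2 and 8 bp apart. The first motif of the left pair and both motifs of the right pair shared bases with an ETS motif.
Cish start, left pair, chr9:107198988-107199011: ttTTCCTGGAAagTTCTTGGAAat
Cish start, right pair, chr9:107199093-107199122: ggTTCTAGGAAgatgaggcTTCCGGGAAgg

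Runx3-bound regions were unevenly spread over the family. Socs1 had 8, Cish 5, Socs3 2, Socs2 1 and Socs4 1, whereas Socs5, Socs6 and Socs7 had 0. Thus 13 of the 17 regions lay at Socs1 or Cish. With 5 of 8 loci bound (62.5%), the family can be read against 34.2% of all 22350 protein-coding genes with a Runx3-bound region in the same kind of window. The windows of the family were longer, with a median of 64.5 kb compared to 55.4 kb for all protein-coding genes. H3K4me1-marked regions numbered 12 at Socs1, 7 at Socs3, 5 at Cish, 1 at Socs5 and 1 at Socs7, and 0 at Socs2, Socs4 and Socs6. Again 5 of 8 loci held one, compared to 39.4% of protein-coding genes. The 3 loci with both kinds of region were Socs1, Socs3 and Cish, and only Socs6 had neither, a state shared by 52.6% of protein-coding genes.

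**Figure D1:**
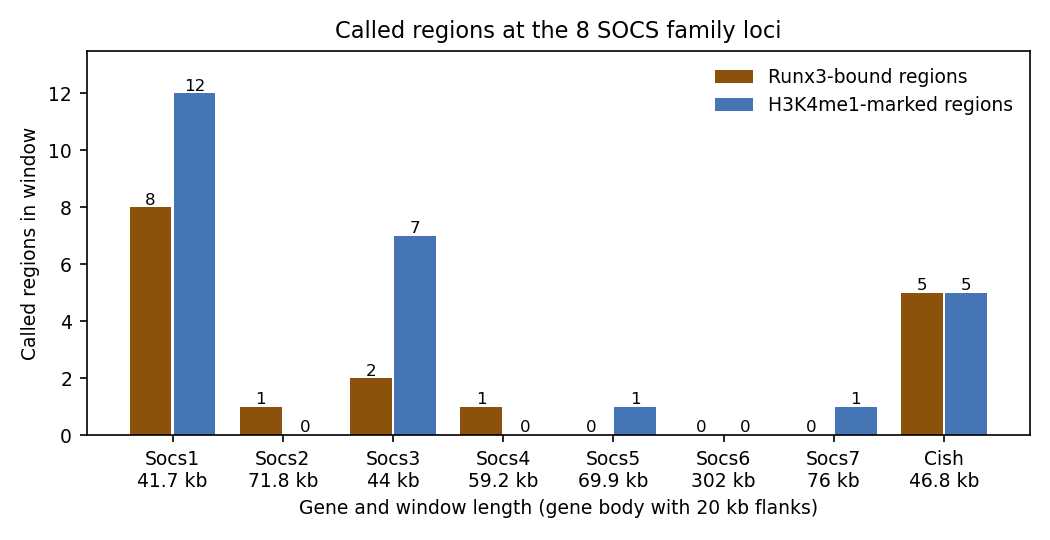
Bars give the number of Runx3-bound (brown) and H3K4me1-marked (blue) regions in the window of each gene, whose length is written under its name. Socs1 has the most of both (8 and 12), and Socs6, with the longest window (302 kb), has 0 of both.

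The window of Socs1 was the shortest (41.7 kb), followed by Socs3 (44.0 kb) and Cish (46.8 kb), and the median over all protein-coding genes was 55.4 kb. Per 100 kb, Socs1 had 19.2 Runx3-bound regions, Cish 10.7 and Socs3 4.55, compared to 0.357 over the whole genome, not only gene windows. Among the windows of all protein-coding genes, 0.00895% were at least as dense as Socs1, 0.121% as Cish and 3.63% as Socs3. A count of 5 or more, as at Socs1 and Cish, was found for 1.04% of protein-coding genes, and a count of 8 or more, as at Socs1, for 0.125%. The latter were 28 genes and included Tnp2, a neighbour of Socs1 that shares its regions. With 5 or more regions in a window of at most 50 kb there were 25 genes, among them Socs1, Cish and 5 neighbours of Socs1.

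**Figure D2:**
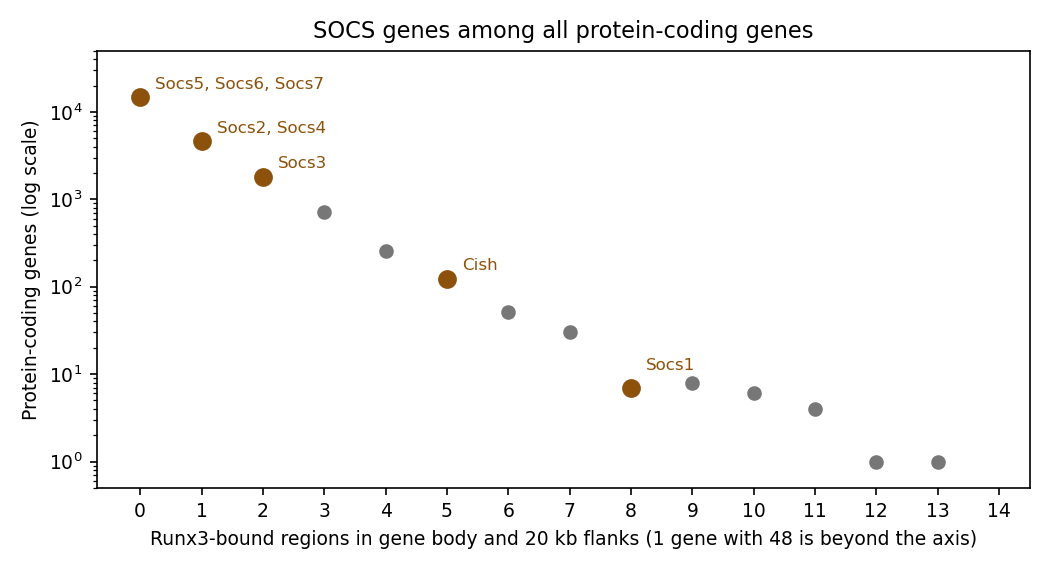
The horizontal axis is the number of Runx3-bound regions in a gene body with 20 kb flanks and the vertical axis the number of protein-coding genes with that count (log scale, grey points). Brown points carry the SOCS genes with that count, from 14709 genes at 0 to 7 genes at 8, and 1 gene with 48 is beyond the axis.

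Socs1, on chromosome 16 (10783901 to 10785629, minus strand), encodes an inhibitor that binds JAK kinases and blocks their catalytic site. Its 8 Runx3-bound regions fell in 3 groups. Downstream of the gene lay a group of 3 intergenic regions with centres at 16.7 kb (10768662 to 10769269), 15.8 kb (10769595 to 10770069) and 13.1 kb (10772184 to 10772780). All 3 overlapped H3K4me1, with 100%, 77.9% and 64.7% of their bases covered.

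A second group surrounded the gene itself. Its regions were centred at 3.34 kb (10782004 to 10782573, intergenic), 2.12 kb (10783070 to 10783953, reaching into the 3' UTR), 0.160 kb (10785087 to 10785851, over the transcription start site, TSS) and -0.782 kb (10785902 to 10786920, intergenic). These included the widest of all 17 members, at 1019 bp, which is wider than 98.0% of the Runx3 list. The region over the 3' end (884 bp) was wider than 95.7% and that over the TSS (765 bp) wider than 90.8% of the list. The last region of the locus, at -3.01 kb (10788330 to 10788957), lay over coding exon and UTR of Tnp2, 0.105 kb from its start. Tnp2 and the neighbouring protamine genes Prm1 to Prm3 are known for packing DNA in spermatids.

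The gene body of Socs1 lay in a gap of 4.77 kb between H3K4me1-marked regions (10781757 to 10786523). The centres of all 4 regions of the second group were in this gap, and 3 of them had no H3K4me1 base at all. On either side the mark was dense. H3K4me1-marked regions covered 20.1 kb or 48.2% of the window, compared to 1.39% of the whole genome, not only gene windows. As many marked regions as at Socs1 were found for 0.747% of protein-coding genes. Of the 12 marked regions, 8 lay downstream of the gene and 4 on the side of its start.

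**Figure D3:**
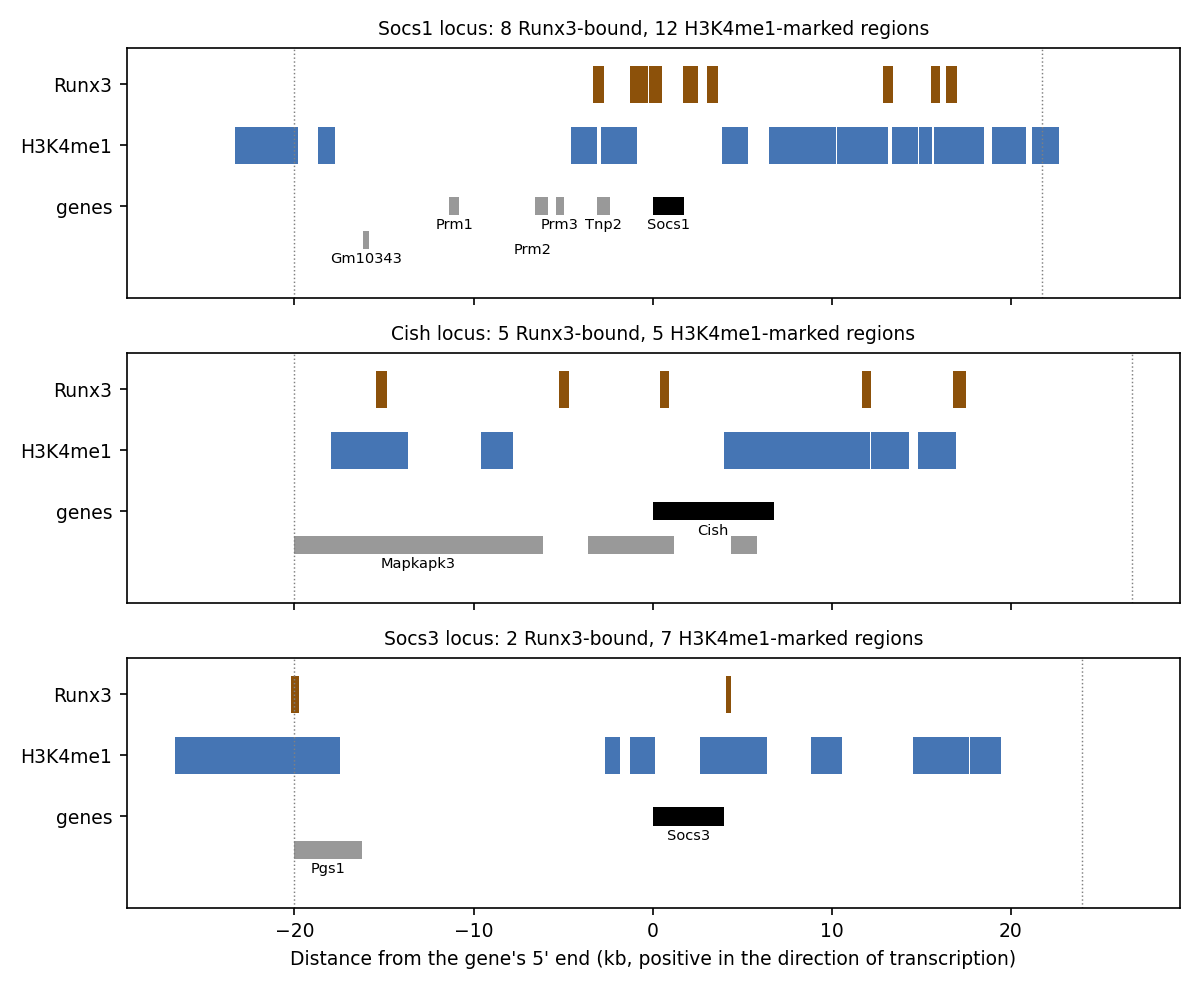
Maps of the Socs1, Cish and Socs3 windows by distance from the 5' end of the gene (kb), with Runx3-bound regions in brown, H3K4me1-marked regions in blue, the named gene in black and other genes in grey, those on the opposite strand lower. Dotted lines mark the window edges, and the starts of Socs1 and Cish each lie in an H3K4me1 gap that holds Runx3-bound regions (4.77 kb and 11.8 kb wide).

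Cish, on chromosome 9 (107198357 to 107205115, plus strand), encodes an inhibitor induced by STAT5 that also limits T cell receptor signalling. One of its 5 Runx3-bound regions (107198761 to 107199267, 507 bp) was centred 0.0270 kb from the start of an annotated Cish transcript and 0.657 kb downstream of the outermost start. It overlapped UTR of Cish and the antisense-strand transcript Gm17040, and no H3K4me1. The region at -4.94 kb (107193153 to 107193681, intergenic) was also free of the mark. Both centres lay in the same H3K4me1 gap of 11.8 kb (107190533 to 107202328).

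The other 3 regions overlapped H3K4me1. The region at -15.1 kb (107182937 to 107183504) was fully covered and lay over coding exon and UTR of Mapkapk3, a kinase downstream of p38. It was centred 0.0260 kb from a transcript start of that gene. The intergenic regions at 11.9 kb (107210026 to 107210534) and 17.1 kb (107215147 to 107215833) were covered to 88.4% and 19.9%. The marked region that ran from the body of Cish to beyond its 3' end (107202329 to 107210475) was 8147 bp wide, more than 99.7% of the H3K4me1 list. In all, the mark covered 39.4% of the window.

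Socs3, on chromosome 11 (117827393 to 117831361, minus strand), encodes the inhibitor of gp130-type receptors such as that of IL-6. H3K4me1 covered 34.5% of its window in 7 regions, of which one (117831224 to 117832650) lay over the 5' end of the gene. Runx3 was called at only 2 places, both fully inside H3K4me1. The first (117826971 to 117827289) was the narrowest member, at 319 bp, and was 0.104 kb beyond the 3' end of the gene. The second (117851111 to 117851569) was 19.8 kb from the gene body in an intron of Pgs1, a gene of phospholipid synthesis, and its nearest TSS was that of Pgs1 at 3.14 kb. No Runx3-bound region was centred closer than 3.37 kb to an annotated start of Socs3.

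Socs2, which restrains growth hormone signalling, had 1 Runx3-bound region and no H3K4me1-marked region. This region (chromosome 10, 94856900 to 94857319, 420 bp) was intronic, centred 22.7 kb downstream of the outermost start and 1.51 kb from the nearest annotated Socs2 transcript start. The nearest H3K4me1-marked region was centred at -22.2 kb.

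The remaining members, Socs4 to Socs7, have been linked mainly to growth factor and insulin receptor signalling. At Socs4 the single Runx3-bound region (chromosome 14, 47917673 to 47918032, 360 bp) was 1.90 kb beyond the 3' end of the gene and overlapped UTR of Mapk1ip1l, 0.114 kb from the start of that gene. Socs5 had an intronic H3K4me1-marked region at 11.2 kb (chromosome 17, 87517406 to 87518995), and Socs7 an intergenic one 2.50 kb beyond its 3' end (chromosome 11, 97262358 to 97263575). The nearest Runx3-bound regions to a start of Socs5, Socs6 and Socs7 were at -63.1, -48.3 and -46.9 kb.

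Only uniquely aligned reads had been used, and the share of 32-base words that occur once in the genome was 95.7% at Socs5, 86.0% at Socs6 and 91.6% at Socs7, compared to 91.2 to 94.3% at the 5 bound loci. RUNX motifs were present at the 3 loci without Runx3, at 1.46 per kb at Socs5, 1.30 at Socs6 and 1.92 at Socs7, compared to 1.34 (Socs4) to 2.11 (Socs2) per kb outside the Runx3-bound regions of the 5 bound loci. The 262 kb gene body of Socs6 includes processed transcripts that run far beyond the coding ones.

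At the 20 kb limit, the last Runx3-bound region inside was that in Pgs1 at 19.8 kb from Socs3. The first Runx3-bound regions outside were 20.6 kb from Socs1 (10806217 to 10806735) and 20.8 kb from Cish (107225905 to 107226513). The last H3K4me1-marked region inside was 19.8 kb from Socs1 (10805431 to 10808922), and the first one outside 20.6 kb from Cish (107225712 to 107228098).

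The nearest annotated TSS of a member was not always that of a SOCS gene. It was so for 10 of the 17 regions, namely 7 at Socs1 and 1 each at Socs2, Socs3 and Cish. For the others it belonged to Mapkapk3 (2 regions), Gm17041 (2), Tnp2, Pgs1 and Mapk1ip1l. Of the members, 6 were centred under 1 kb from any TSS and 5 over 5 kb away. Members were chosen by nearness to gene bodies, which bears on all these counts. No share over the whole list is set beside them, so they only describe position.

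H3K4me1 was overlapped by 10 of 17 members (58.8%, 95% Wilson interval 36.0 to 78.4%, counting error only), compared to 57.3% of all Runx3-bound regions. With flanks of 5 or 10 kb in place of 20 kb, the share was 36.4% (4 of 11). By locus the overlap was 5 of 8 at Socs1, 3 of 5 at Cish, 2 of 2 at Socs3 and 0 of 2 at Socs2 and Socs4. Among the 10 overlapping members, 4 had their centre outside the mark (40.0%, interval 16.8 to 68.7%), compared to 19.3% of all overlapping regions. The regions at 13.1 kb and -3.01 kb of Socs1 sat across gaps of 211 and 210 bp between neighbouring marked regions. Together with that at 15.8 kb they made 3 of 17 members that touched 2 or more marked regions (17.6%), compared to 7.53% of the list. A neighbouring Runx3-bound region within 10 kb was found for 12 of 17 members (70.6%), compared to 33.5% of the list. Members were chosen within gene windows and 13 of the 17 lay at Socs1 or Cish. This share therefore restates the counts per locus and is no separate result.

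The members were of ordinary width, with a median of 568 bp compared to 521 bp for the list, and their GC content was higher (median 55.8% compared to 49.1%). The marked regions had a median width of 1836 bp, compared to 1592 bp for their list.

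A RUNX motif was found in 16 of the 17 members (94.1%, interval 73.0 to 99.0%), compared to 92.6% of all Runx3-bound regions. The exception was the Cish region at 17.1 kb, which held 5 ETS motifs. The members held 37 RUNX motifs, of which 18 were TGTGGT, 12 TGTGGC, 2 TGCGGT and 5 TGCGGC. The widest region, upstream of Socs1, held 6, of which 3 stood end to end from 10786764 to 10786781. In the central 200 bp, a RUNX motif was found in 12 members (70.6%, interval 46.9 to 86.7%), compared to 78.8% of the list, and an ETS motif in 11 (64.7%, interval 41.3 to 82.7%), compared to 66.2%. These intervals treat regions as independent, which regions of a locus are not, and no test was made against the list. In the SOCS windows RUNX motifs occurred at 3.71 per kb inside the Runx3-bound regions and at 1.55 per kb outside.

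The share with a STAT motif was higher at the SOCS loci than in the list. The motif was found in the central 200 bp of 8 members (47.1%, interval 26.2 to 69.0%), compared to 10.7% of all Runx3-bound regions. These were 4 of the 8 regions at Socs1, 2 of 5 at Cish and 2 of 2 at Socs3, and neither that of Socs2 nor that of Socs4. Regions of a locus are not independent, so the interval is likely too narrow, and no test was made over the members. In regions of the list whose centre had over 50% GC the share was 7.60%, and in the others 13.7%. A RUNX motif accompanied the STAT motif in 7 of these 8 centres, the exception being Socs1 at 15.8 kb. In the list, 755 of the 974 regions with a STAT motif in the centre also held a RUNX motif there. The pairing was thus common in the list too.

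The Cish start held 3 STAT motifs in its central 200 bp, a number reached by 4 of the 9135 Runx3-bound regions, and the fourth motif lay just outside this window. In the Socs1 region at 13.1 kb, both STAT motifs (10772432 to 10772440 and 10772457 to 10772465) and the RUNX motif of the centre lay in the 211 bp gap of H3K4me1. Of all 15 STAT motifs in the members, 6 were inside H3K4me1-marked regions and 9 outside, of which 4 lay in the Cish start region. No share over the whole list is set beside this split, so it only describes position. Counting the windows alone, the density was 1.44 per kb inside Runx3-bound regions and 0.409 per kb outside. By locus, the densities inside and outside were 2.14 and 0.409 per kb at Cish, 1.08 and 0.276 at Socs1, and 3.51 and 0.461 at Socs3. The value inside at Socs3 rests on 2 motifs in 0.570 kb. Socs2 and Socs4 went the other way, with 0 inside and 0.392 (Socs2) and 0.493 (Socs4) per kb outside.

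**Figure D4:**
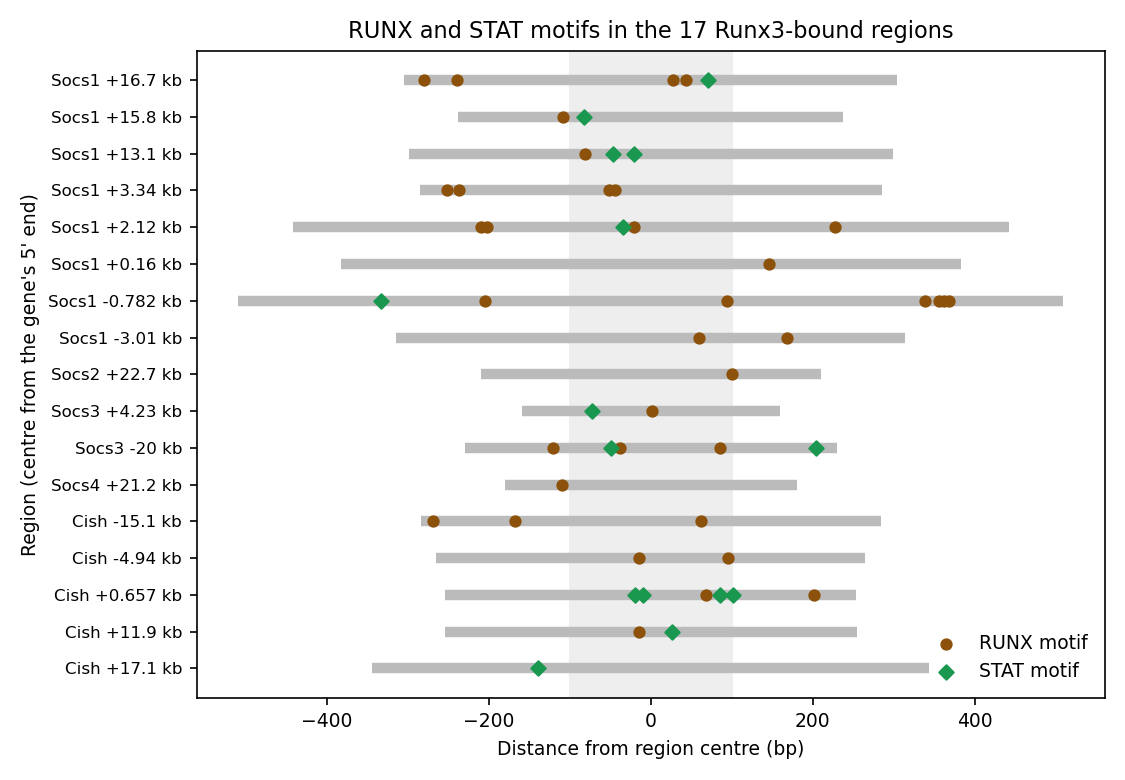
Each grey bar is one of the 17 Runx3-bound regions, centred at 0 bp and drawn to its width, with RUNX motifs as brown circles and STAT motifs as green diamonds, and the central 200 bp shaded. The Cish region at 0.657 kb carries 4 STAT motifs, and the regions at Socs2 and Socs4 carry none.

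The AP-1 motif was found in the centre of 2 members (11.8%, interval 3.29 to 34.3%), compared to 6.50% of the list. These were the Socs1 region at 3.34 kb and the Socs3 region in Pgs1, the latter with a STAT motif as well.

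**Figure D5:**
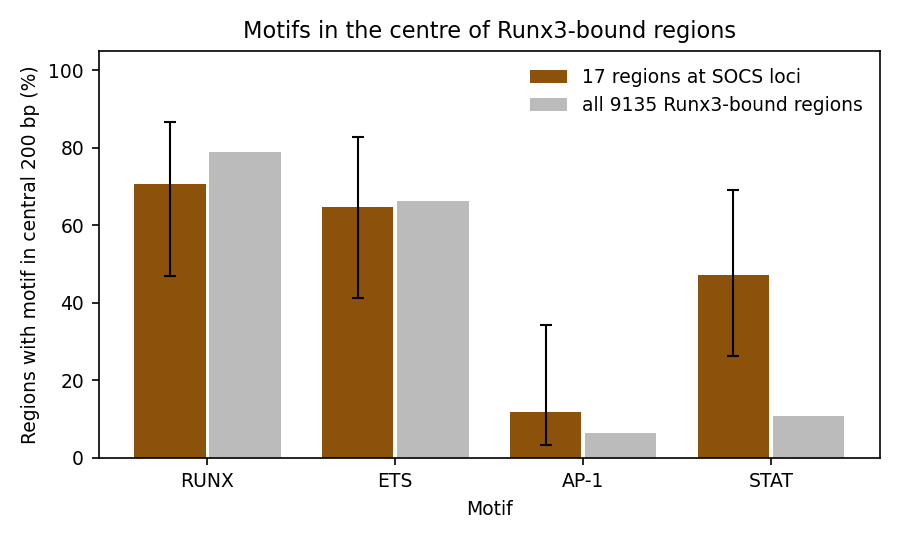
Bars give the percentage of regions with each motif in the central 200 bp for the 17 members (brown, with 95% Wilson intervals for counting error) and for the whole Runx3 list (grey). The STAT bar of the members (47.1%) is above that of the list (10.7%). Regions of a locus are not independent, so the intervals are likely too narrow, and no test was made.

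Other genes of the pathway were listed for context, each with the same 20 kb flanks. Of 11 JAK and STAT genes, 9 had a Runx3-bound region and 11 an H3K4me1-marked region, with the most Runx3-bound regions at Stat4 (6), which conveys IL-12 signals, and Jak1 (5). Of 19 cytokine receptor genes, 15 had a Runx3-bound region and 16 a marked one, led by Il21r (7), followed by Il2ra, the IL-2 receptor alpha chain, and Il4ra (6 each). Of 11 other inhibitors of the pathway, 5 had a Runx3-bound region and 9 a marked one, led by Ptprc (5), which encodes the phosphatase CD45, and Ptpn1 (4). These shares (81.8%, 78.9% and 45.5%) can be read against the same 34.2% of protein-coding genes, although the median windows of these lists (82.4, 67.2 and 87.3 kb) were longer than those of all genes. The H3K4me1 shares (100%, 84.2% and 81.8%) can likewise be read against 39.4% of protein-coding genes. No gene of these lists reached the 8 regions of Socs1.

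Elongins, Cul5 and Rnf7 form the ubiquitin ligase that SOCS boxes engage. Of these 4 genes, only Tceb1 (elongin C) had Runx3-bound regions (2), and Cul5, the cullin of the ligase, had 0. Of 9 genes for other SOCS box proteins, 3 had a Runx3-bound region, with 2 each at Asb2 and Spsb1. The shares of both lists (25.0% and 33.3%) stand beside 34.2% of protein-coding genes. The STAT motif in the central 200 bp was found in 1 of 22 Runx3-bound regions at JAK and STAT genes (4.55%), 6 of 47 at receptor genes (12.8%), 1 of 14 at the other inhibitors (7.14%), 1 of 2 at ligase genes and 0 of 5 at the other SOCS box genes. The difference between these lists and the SOCS family was not tested.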

How the data were processed

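Splenic CD8-TC were analysed by ChIP-seq with anti-Runx3 antibody (2 libraries), NIS (2) and anti-H3K4me1 antibody (1 in the labels). Reads of 40 to 42 bases had been aligned to mm9 with ELAND, the unique ones kept, repeats joined and peaks called with MACS against NIS, the larger read set being scaled down. The deposited lists, made by the authors in this way, give the start and end of each peak in bp and no score or other value, so the spread between repeats cannot be seen and repeated sequence can go uncalled.

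Sequence and annotation were NCBIM37 (mm9) and GENCODE vM1. Coordinates are counted from 1, and overlap required at least 1 bp. Members, gene lists and motifs were chosen with earlier results of these data known. All 8 members were named, and of each pathway list the 2 genes with most Runx3-bound regions. Intervals are 95% Wilson intervals over regions. No test was made, because each list is a single call set. Distances were taken from 95414 annotated transcripts. Words of 32 bases were counted on autosomes and X and approximate unique alignment. Computations used Python 3.11.15, NumPy 2.4.6, SciPy 1.17.1 and matplotlib 3.10.9. The functions, tested on simulated data, gave 0 differences from direct counting. Alternatives were flanks of 5, 10 and 50 kb, region centres, merged regions, stricter or wider overlap, other starts and coding transcripts only (the last added after the data were examined).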

Additional observations from a re-analysis of the deposited data

How the results depend on the processing

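Of 29 alternative values for 6 results, 22 stayed within 1.5 times the main count or, for shares, within the interval of the main share, and 7 did not. Flanks of 5 and 10 kb each left 11 Runx3-bound regions in place of 17, and 11 and 15 H3K4me1-marked regions in place of 26, while 50 kb gave 46 of the latter. Merging regions closer than 1 kb gave 15 H3K4me1-marked regions. The share with a RUNX motif was 70.6% in the central 200 bp in place of 94.1% in the whole region. These differences follow from the shorter, longer or merged intervals. With flanks of 5 and 10 kb the overlap with H3K4me1 was 36.4% (4 of 11), compared to 58.8% in the main setting. This was just above the low end of the main interval (36.0%). The 11 regions are part of the same 17, so lying within this wide interval does not show that the share was stable. The number of bound loci was 5 under all settings run except 50 kb, where it was 7. Gene bodies of coding transcripts only, an alternative chosen after seeing the data, gave 16 Runx3-bound regions. No paired analysis was possible because peaks were called on joined reads and the lists hold no replicates, so no replicate could be left out either, and a stricter peak threshold was not run since the lists hold no score. The depth behind each region is unknown.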
